A study of Mus musculus with 8 samples.

Results

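Knockdown of Nkx2-1 by itself, set against a control shRNA, was examined in mouse lung adenocarcinoma cell lines. The comparison rests on 4 of the 8 RNA sequencing libraries of the study, chosen by their column names and titles: 2 libraries of shNkx2-1 and 2 of shControl. The shNkx2-1 cells carried an shRNA against Nkx2-1, and the shControl cells one against luciferase. Both are Tnonmet cells, derived from primary tumour without metastasis. Their genotype includes Trp53-/-, so the controls lack Trp53 too, and both were grown in DMEM with 10% serum. The shRNAs came in on retroviruses or lentiviruses. One more Tnonmet group, the triple knockdown, carried shRNAs against Foxa2 and Cdx2 besides that against Nkx2-1. It helped to estimate the spread between duplicates and is set beside the 2 groups at the end. The remaining 2 libraries, Tmet, come from a metastatic primary tumour and entered 1 alternative fit only. The sources used here do not say whether the lines are single clones, nor how many shRNAs were used against a gene. The labels do not call the duplicates separate cultures, and p-values therefore measure only how far these libraries spread, which may be technical.

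Nkx2-1 is a homeobox transcription factor that specifies the lung and thyroid in the foregut endoderm. In the adult lung it drives surfactant genes in alveolar type 2 cells. In lung adenocarcinoma it is known as a lineage factor whose loss goes with programmes of the neighbouring gut endoderm, which Foxa factors, Hnf4a and Cdx2 direct in stomach, liver and intestine, and with spread of the tumour.

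The knockdown lowered Nkx2-1 but left transcript behind. Nkx2-1 measured 38.1 and 45.2 CPM in shNkx2-1 and 77 and 68.5 CPM in shControl (CPM, counts-per-million with TMM scaling). Both shNkx2-1 libraries lay below both shControl libraries, with a fall (log2 change -0.80 ± 0.12, adjusted p = 0.00398) by edgeR's quasi-likelihood test with Benjamini-Hochberg adjustment over all genes tested, the test behind every adjusted p given here. Foxa2, a forkhead factor of endoderm, measured 49.6 and 42 CPM in shNkx2-1 and 57.2 and 55.5 CPM in shControl and did not pass (adjusted p = 0.139). Cdx2, the homeobox factor that specifies intestine, measured 177 and 188 CPM in shNkx2-1 and 99.3 and 111 CPM in shControl and rose (log2 change 0.79 ± 0.12, adjusted p = 0.00408). Trp53 was listed at 6.31 and 4.77 CPM in shNkx2-1 and 4.84 and 4.57 CPM in shControl (log2 change 0.24 ± 0.22, adjusted p = 0.52), and counts per gene do not resolve which exons remain.

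Several markers of the labelled tissue were absent in both groups, and others were present. Of the 31 lung epithelial markers, 15 had enough counts to be tested and 6 had 0 counts in all 4 libraries. The surfactant genes Sftpa1 and Sftpd and the lamellar body gene Lamp3 were at 0 in all 4. Surfactant protein B, Sftpb, measured 0.551 and 0.511 CPM in shNkx2-1 and 0.806 and 0.623 CPM in shControl. The lipid transporter Abca3, at 235 and 237 CPM in shNkx2-1 and 258 and 244 CPM in shControl, and the water channel Aqp5, at 1240.0 and 1030.5 CPM in shNkx2-1 and 1481 and 1229 CPM in shControl, were present in both groups and did not pass (adjusted p = 0.455 and 0.277). A keratin and a cadherin of epithelium were present: Krt8 measured 3511 and 3128 CPM in shNkx2-1 and 4033 and 3789 CPM in shControl, and Cdh1, E-cadherin, 755 and 926 CPM in shNkx2-1 and 952 and 1012 CPM in shControl. Epcam, another epithelial adhesion gene, was nearly absent at 0.184 and 0.681 CPM in shNkx2-1 and 0.336 and 0.208 CPM in shControl. Of the lung markers only Nkx2-1 fell and only Foxp1 rose, where 6.82% of all genes tested fell and 8.94% rose. The rise of Foxp1 (log2 change 0.39 ± 0.08, adjusted p = 0.0165) was lost in some fits (adjusted p 0.0813 with all 8, 0.126 without shControl library 1, 0.0733 without shControl library 2 and 0.0778 without shNkx2-1 library 2).

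The 4 libraries held 16203758 and 17599131 estimated counts in shNkx2-1 and 14496995 and 18918538 in shControl. Duplicates correlated at 0.994 in shNkx2-1 and 0.995 in shControl (Pearson's r of log2 CPM, across genes within the pair). A count of 3 in a library equals 0.159 to 0.207 CPM in these 4, and levels under it are at the limit of detection. Of 23224 genes listed, 12727 passed the filter on low counts and 10497 did not.

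Among the genes tested, 2006 (15.8%) differed between shNkx2-1 and shControl at an adjusted p below 0.05. Of these, 1138 (8.94%) were higher and 868 (6.82%) lower in shNkx2-1. Most changes were small, with a median absolute log2 change of 0.65 among the called genes. Past 2-fold lay 366 rises and 203 falls, and past 4-fold 123 rises and 75 falls. The number of calls leaned on single control libraries: 567 genes passed without shControl library 1 and 952 without shControl library 2, while 473 (3.55%) passed in the fit of all 8 libraries. The groups did not overlap in 59.3% of the genes tested, so that separation of 2 against 2 libraries alone says little about a gene. For this reason a smaller set is used as the firm one, the 354 genes called in the same direction in all 13 fits tried, of which 209 rose and 145 fell. They are 2.78% of the genes tested, 1.64% in the rising and 1.14% in the falling direction. Unless said otherwise, each gene named below as risen or fallen belongs to it.

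**Figure D1:**
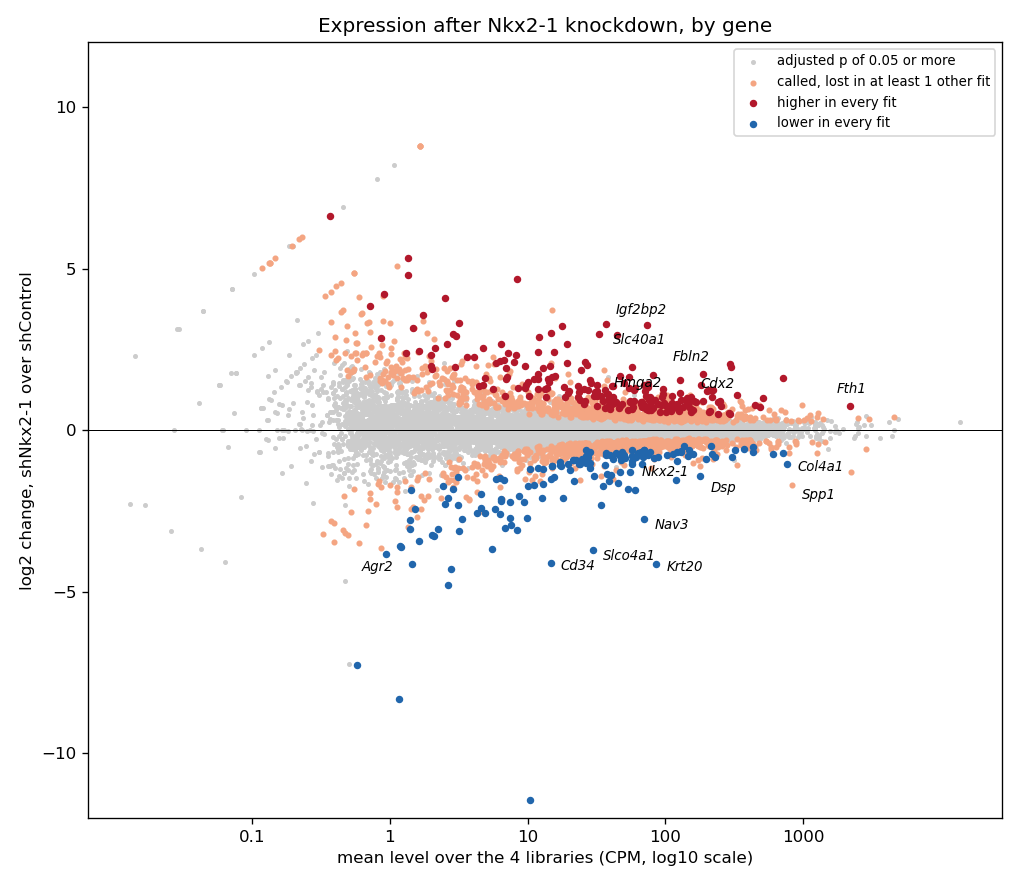
Log2 change of each tested gene (shNkx2-1 over shControl, y axis) against its mean level over the 4 libraries (CPM, log10 x axis). Red and blue points are the 209 rises and 145 falls called in all 13 fits, orange points are calls lost in at least 1 fit, and grey points did not pass; 2 genes with no counts in the 4 libraries are not drawn. Krt20 stands apart as a large fall at a high level, Igf2bp2 and Slc40a1 as large rises, and the values beyond 6 on either side belong to genes with no counts in 1 group.

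The deepest falls included epithelial and surface genes. Krt20, the keratin of mature intestinal and gastric lining, measured 9.68 and 8.69 CPM in shNkx2-1 and 177 and 148 CPM in shControl (log2 change -4.14 ± 0.15, adjusted p = 1.37e-05). Cd34, a sialomucin best known from blood progenitors and vessels, measured 2.02 and 1.19 CPM in shNkx2-1 and 32.8 and 22.8 CPM in shControl (log2 change -4.11 ± 0.28, adjusted p = 0.000147). In both genes the shNkx2-1 libraries sat many-fold below the lower shControl library. Falls were picked as largest only where the groups do not overlap, so separation as such follows from the choice. Nav3, a microtubule-binding neuron navigator, measured 13.4 and 23.3 CPM in shNkx2-1 and 124 and 121 CPM in shControl (log2 change -2.73 ± 0.22, adjusted p = 0.000292). Slco4a1, an organic anion transporter, measured 5.45 and 3.01 CPM in shNkx2-1 and 70.8 and 40.3 CPM in shControl (log2 change -3.72 ± 0.39, adjusted p = 0.000911), its 2 control libraries being well apart from each other yet both above the shNkx2-1 pair. Other deep falls ended near 0: Oit1, a secreted gut protein, measured 0.184 and 0.17 CPM in shNkx2-1 and 4.63 and 5.61 CPM in shControl, and Pla1a, a phosphatidylserine phospholipase, 0.368 and 0.17 CPM in shNkx2-1 and 5.84 and 4.83 CPM in shControl. Their log2 changes were -4.80 ± 0.43 and -4.29 ± 0.40, with shNkx2-1 levels near the limit of detection. Besides Amd1 below, the other falls picked as largest averaged 5 CPM or more in shControl and had log2 changes between -3.66 and -2.72. They were Hs3st5 (heparan sulfate sulfotransferase), Cpn1 (carboxypeptidase N), Ranbp3l, Arhgap40 (a GTPase activator) and Slc17a6 (vesicular glutamate transporter). Abcg1 (cholesterol exporter), Pde4c (cAMP phosphodiesterase) and Enpp3 (ectonucleotide pyrophosphatase) completed them. Less abundant genes were not ranked, though Bcas1 and Cacna2d4 fell within this range (log2 changes -3.23 ± 0.45 and -3.07 ± 0.43). Amd1, which makes decarboxylated S-adenosylmethionine for polyamine synthesis, was listed at 0 and 0 CPM in shNkx2-1 and 23.6 and 18.3 CPM in shControl. Its near-identical copy Amd2 measured 111 and 98 CPM in shNkx2-1 and 98.6 and 103 CPM in shControl. As the estimation divides reads between such copies, the difference in Amd1 is uncertain.

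The largest rises were ranked among genes with established names that averaged 5 CPM or more in shNkx2-1 and passed also with all 8 libraries. Among these they took in an RNA-binding protein, an iron exporter, drug-metabolising enzymes and complement genes. Some rarer genes rose further. Cdhr1 measured 1.65 and 1.82 CPM in shNkx2-1 and 0 and 0.156 CPM in shControl (log2 change 4.20 ± 0.69). Igf2bp2, an oncofetal protein that binds growth factor mRNAs, measured 79 and 55.3 CPM in shNkx2-1 and 6.65 and 7.07 CPM in shControl (log2 change 3.29 ± 0.23, adjusted p = 0.000162). Slc40a1, ferroportin, the only known iron exporter, measured 65.7 and 51.6 CPM in shNkx2-1 and 8.67 and 6.34 CPM in shControl (log2 change 2.98 ± 0.19, adjusted p = 0.000147). Flnc, the actin cross-linker filamin C, measured 97.2 and 61.4 CPM in shNkx2-1 and 6.99 and 13.2 CPM in shControl (log2 change 2.94 ± 0.33, adjusted p = 0.00131). In each the lower shNkx2-1 library was above the higher shControl library by several fold. The ranking admitted only genes whose groups do not overlap, so the separation itself was set by that choice. Among complement genes C4bp, which restrains the classical pathway, measured 22.1 and 30.2 CPM in shNkx2-1 and 3.36 and 3.17 CPM in shControl (log2 change 3.0 ± 0.24, adjusted p = 0.000292), and Masp1, a protease of the lectin pathway, 8.82 and 7.55 CPM in shNkx2-1 and 0.806 and 1.87 CPM in shControl (log2 change 2.56 ± 0.32, adjusted p = 0.00204). Tgfb2, a TGF-beta ligand, measured 15.1 and 24.9 CPM in shNkx2-1 and 2.69 and 4.62 CPM in shControl (log2 change 2.42 ± 0.30, adjusted p = 0.00204), and Ceacam18, of the carcinoembryonic antigen family, 26.2 and 26.5 CPM in shNkx2-1 and 6.45 and 3.53 CPM in shControl (log2 change 2.42 ± 0.24, adjusted p = 0.000787). Genes with clone or predicted names were not ranked with these, though 2610528A11Rik, at 15.3 and 16.8 CPM in shNkx2-1 and 0.537 and 0.675 CPM in shControl, rose by a log2 change of 4.69 ± 0.24, more than any gene in this paragraph, and Gm4841 by one of 3.26 ± 0.15. Also picked as large were Tmem151a, Mtap6, which stabilises microtubules, and Impact, an inhibitor of the Gcn2 kinase, with log2 changes of 3.30 ± 0.31, 2.66 ± 0.18 and 2.40 ± 0.32. The enzymes among the largest rises are described with the drug-metabolising genes.

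**Figure D2:**
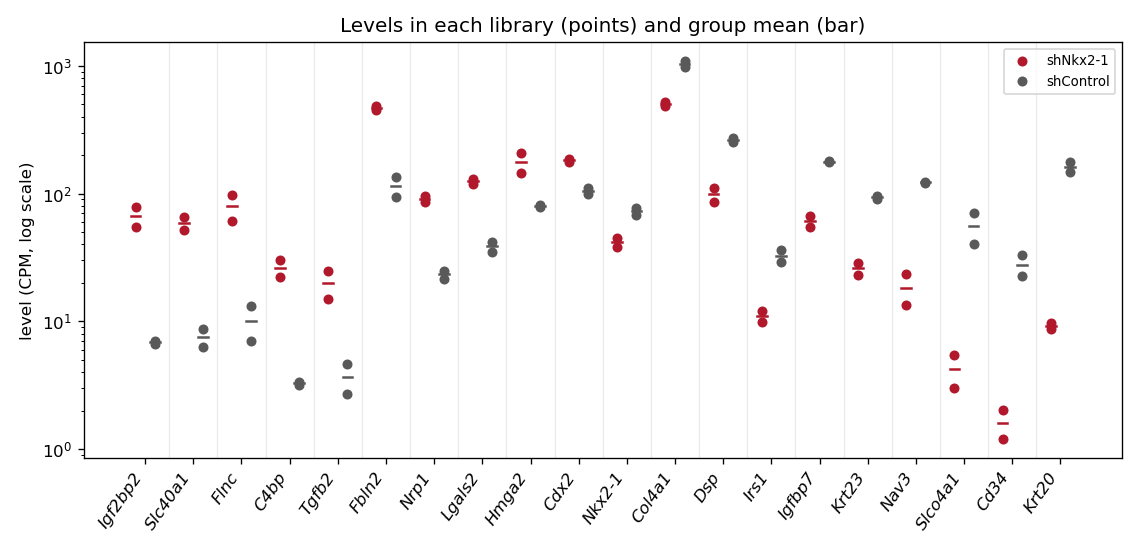
Level of 20 genes called in all fits (CPM, log y axis) in each shNkx2-1 library (red points) and each shControl library (grey points), with short bars at the group means. For each of these genes the red and grey points do not overlap, which their calls in all fits made likely. The groups did not overlap in 59.3% of all genes tested. The widest gap among the falls is that of Krt20.

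Since Nkx2-1 is a DNA-binding factor, the promoters of Krt20 and Cd34, which fell, and of Igf2bp2 and Cdx2, which rose, are shown. Each is RefSeq sequence of the assembly GRCm38.p6, 250 bases before to 50 after the transcript start, given 5′ to 3′ on the gene's own strand. The letters TNAAGTG, or CACTTNA on the other strand, follow the known consensus of the NKX2 family and occur in 11.5% of 27025 promoters of this length in the table. Capitals mark a match. Cd34 holds 1, on the minus strand of the gene with its first base at position -132 from the start, and the other 3 windows hold none. A match describes letters and not binding.
Krt20, chr11:99438104-99438403, minus strand: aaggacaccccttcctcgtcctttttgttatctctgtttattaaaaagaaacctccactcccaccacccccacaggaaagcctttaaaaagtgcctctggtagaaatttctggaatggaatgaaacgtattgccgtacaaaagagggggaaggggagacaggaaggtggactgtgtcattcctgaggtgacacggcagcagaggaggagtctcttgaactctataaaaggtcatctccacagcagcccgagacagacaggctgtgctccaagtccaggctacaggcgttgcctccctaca
Cd34, chr1:194938571-194938870, plus strand: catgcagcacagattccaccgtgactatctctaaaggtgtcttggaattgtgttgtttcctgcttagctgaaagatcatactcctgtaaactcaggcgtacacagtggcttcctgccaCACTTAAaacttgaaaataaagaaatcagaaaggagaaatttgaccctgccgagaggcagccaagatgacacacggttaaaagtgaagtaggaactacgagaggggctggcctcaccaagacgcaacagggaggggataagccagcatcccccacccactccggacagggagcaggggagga
Igf2bp2, chr16:22163250-22163549, minus strand: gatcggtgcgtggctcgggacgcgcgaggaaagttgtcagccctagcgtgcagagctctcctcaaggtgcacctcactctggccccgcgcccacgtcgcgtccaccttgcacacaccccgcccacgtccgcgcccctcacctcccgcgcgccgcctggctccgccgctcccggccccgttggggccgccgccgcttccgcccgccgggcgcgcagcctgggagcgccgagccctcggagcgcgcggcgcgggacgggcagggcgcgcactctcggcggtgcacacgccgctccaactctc
Cdx2, chr5:147307200-147307499, minus strand: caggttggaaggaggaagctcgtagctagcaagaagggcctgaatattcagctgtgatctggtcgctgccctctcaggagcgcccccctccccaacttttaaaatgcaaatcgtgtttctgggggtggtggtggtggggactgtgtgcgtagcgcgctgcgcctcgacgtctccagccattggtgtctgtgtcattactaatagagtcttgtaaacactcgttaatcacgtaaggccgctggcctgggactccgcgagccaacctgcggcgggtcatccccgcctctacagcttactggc
The bases G and C made up 76.7% of the Igf2bp2 window and 57.3% of that of Cdx2.

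Gene lists by pathway and cell type were read for counts in each direction. Over the 1105 tested list genes, 215 rose and 97 fell, and 55 and 28 did so in all fits. Together that is 28.2% of these genes, against 15.8% of all tested. As the lists were chosen with earlier results of these data known, the higher share among them is no evidence about the lists. Counts given below for a list are those of edgeR's test in the main fit, followed by those in all fits, and beside a list's median log2 change stands its range over the fits. Over all genes tested the median was 0.00. The shares over all genes tested, 8.94% rising and 6.82% falling, or 1.64% and 1.14% in all fits, stand against every list below.

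Endoderm and gut programmes moved in parts and not as a block. Among 26 tested transcription factors of endoderm, liver and gut, 3 rose and 3 fell, 2 and 0 in all fits (median log2 change 0.08, 0.07 to 0.16). Cdx2 and Klf4 were the rises found in all fits. Klf4, a zinc finger factor of differentiating gut and skin epithelium, measured 114 and 141 CPM in shNkx2-1 and 65.4 and 60.8 CPM in shControl (log2 change 1.01 ± 0.14, adjusted p = 0.0032). Hnf4a, the nuclear receptor of liver and gut, measured 384 and 349 CPM in shNkx2-1 and 318 and 282 CPM in shControl and missed the threshold (adjusted p = 0.0978), and Foxa1 showed a log2 change of -0.02 ± 0.10 (adjusted p = 0.913). Of 28 tested stomach and intestine products, 5 rose and 4 fell, 1 and 3 in all fits (median log2 change -0.13, -0.19 to -0.07). Lgals2, a galectin of the gut lining, measured 119 and 131 CPM in shNkx2-1 and 42 and 35.1 CPM in shControl (log2 change 1.70 ± 0.12, adjusted p = 0.000147). Agr2, a disulfide isomerase needed for mucin folding, fell together with Krt20 and Oit1 and measured 0.184 and 0.114 CPM in shNkx2-1 and 2.55 and 2.91 CPM in shControl (log2 change -4.15 ± 0.49, adjusted p = 0.00155). Both shNkx2-1 libraries were under the limit of 3 counts or near it for Agr2. Lgals4, galectin 4, measured 722 and 777 CPM in shNkx2-1 and 871 and 817 CPM in shControl and did not pass (adjusted p = 0.193). Nor did villin, Vil1, which bundles actin in microvilli, at 73.3 and 79.9 CPM in shNkx2-1 and 119 and 88.9 CPM in shControl (adjusted p = 0.065). The stomach product Gkn1 had no counts. Off the lists, other brush border and secretory genes went both ways. Dmbt1, a secreted scavenger receptor protein of gut and airway mucosa, measured 149 and 195 CPM in shNkx2-1 and 82 and 97.8 CPM in shControl (log2 change 0.93 ± 0.14, adjusted p = 0.00443), and Myo7b, a brush border myosin, 282 and 286 CPM in shNkx2-1 and 203 and 196 CPM in shControl (log2 change 0.51 ± 0.08, adjusted p = 0.0044). Plac8, a small cysteine-rich protein, measured 11.6 and 11.2 CPM in shNkx2-1 and 56.4 and 56.8 CPM in shControl and fell (log2 change -2.31 ± 0.12, adjusted p = 6.66e-05). Eps8l3, a relative of the actin regulator Eps8, measured 18.9 and 25 CPM in shNkx2-1 and 71.9 and 64.4 CPM in shControl and fell (log2 change -1.63 ± 0.15, adjusted p = 0.000676). These 4 genes were chosen after their values were seen.

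Drug and steroid metabolism held both rises and falls. Of 61 tested enzymes 13 rose and 6 fell, 6 and 3 in all fits (median log2 change 0.05, -0.03 to 0.16). Cyp26b1, which clears retinoic acid, measured 35.1 and 49.6 CPM in shNkx2-1 and 12.3 and 18.1 CPM in shControl (log2 change 1.47 ± 0.21, adjusted p = 0.00328). Sult1c2, a sulfotransferase, measured 4.6 and 6.13 CPM in shNkx2-1 and 0.605 and 0.779 CPM in shControl (log2 change 2.93 ± 0.31, adjusted p = 0.000993). Others belong to families with near-identical members, where the division of reads makes the gene uncertain. The glucuronosyltransferase Ugt2b34 measured 32.6 and 31.6 CPM in shNkx2-1 and 4.1 and 2.86 CPM in shControl. The carboxylesterases measured 18.4 and 24 CPM in shNkx2-1 and 3.22 and 2.49 CPM in shControl for Ces2c and 26.3 and 40.0 CPM in shNkx2-1 and 4.7 and 5.71 CPM in shControl for Ces2g. The glutathione transferase Gsta1 measured 213 and 169 CPM in shNkx2-1 and 72.4 and 57.5 CPM in shControl. Each of these 4 kept its shNkx2-1 libraries above both controls, where the groups did not overlap in 59.3% of all genes tested. The log2 changes of the 4 were 3.22 ± 0.21, 2.90 ± 0.24, 2.66 ± 0.28 and 1.56 ± 0.26. Cyp4a12a, of the fatty acid hydroxylases and equally uncertain, measured 4.17 and 5.96 CPM in shNkx2-1 and 0.605 and 0.675 CPM in shControl. On the falling side were Nqo1, the quinone reductase driven by Nrf2, at 2.57 and 1.19 CPM in shNkx2-1 and 8.46 and 6.18 CPM in shControl (log2 change -1.96 ± 0.33, adjusted p = 0.00708), and the aldehyde dehydrogenase Aldh1a7 at 3.98 and 6.42 CPM in shNkx2-1 and 17.9 and 16.1 CPM in shControl (log2 change -1.70 ± 0.23, adjusted p = 0.0029). Of 17 tested liver plasma and complement proteins 3 rose and 2 fell, 1 and 0 in all fits (median log2 change 0.15, -0.15 to 0.20), C4bp being the one in all fits. Apob, the lipoprotein backbone, measured 55.4 and 56.6 CPM in shNkx2-1 and 19.7 and 11.1 CPM in shControl (log2 change 1.88 ± 0.32, adjusted p = 0.00703), which became 0.0619 in the fit of all 8 libraries.

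Oncofetal regulators, genes of embryonic growth that tumours take up again, included some of the larger rises. Of 18 tested 6 rose and none fell, 3 and 0 in all fits (median log2 change 0.15, -0.01 to 0.41). Those in all fits were Igf2bp2, Hmga2 and Plagl2. In the falling direction 1 member had an unadjusted p below 0.05 and DESeq2 called 0. The shares of all genes tested were 8.94% rising and 6.82% falling. Hmga2, a chromatin protein that binds AT-rich DNA, measured 208 and 144 CPM in shNkx2-1 and 79.1 and 80.8 CPM in shControl (log2 change 1.14 ± 0.15, adjusted p = 0.00255), with the shNkx2-1 libraries apart from each other and both above the controls. Plagl2, a zinc finger factor, measured 94.4 and 108 CPM in shNkx2-1 and 51.7 and 59.3 CPM in shControl (log2 change 0.87 ± 0.11, adjusted p = 0.00197).

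The insulin-like growth factor system had its binding proteins pulled in opposite directions. Igfbp3, which holds the growth factors in serum, measured 46.4 and 39.8 CPM in shNkx2-1 and 11.8 and 9.46 CPM in shControl (log2 change 2.03 ± 0.17, adjusted p = 0.00033). Igfbp7, a low-affinity binding protein, measured 54.8 and 66.6 CPM in shNkx2-1 and 179 and 177 CPM in shControl (log2 change -1.55 ± 0.11, adjusted p = 0.000147), and Igfbp5, which sits in matrix, 2.76 and 0.852 CPM in shNkx2-1 and 8.46 and 13.1 CPM in shControl (log2 change -2.60 ± 0.44, adjusted p = 0.00721). Irs1, the adaptor beneath the receptor, measured 9.87 and 12.2 CPM in shNkx2-1 and 35.9 and 29.2 CPM in shControl and fell (log2 change -1.56 ± 0.17, adjusted p = 0.000974). The receptor Igf1r itself measured 83.8 and 112 CPM in shNkx2-1 and 70.9 and 91.4 CPM in shControl and did not pass (adjusted p = 0.291), and Igf2 had no counts in either group. Of the 14 tested members 4 rose and 3 fell, 2 and 3 in all fits (median log2 change 0.24, 0.21 to 0.26). Among all genes tested 8.94% rose and 6.82% fell.

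Many extracellular matrix genes rose. Among 45 tested genes of interstitial matrix and matricellular proteins 18 rose and 5 fell, 8 and 1 in all fits (median log2 change 0.39, 0.38 to 0.59). Over all genes tested 8.94% rose and 6.82% fell. The summed level of the list was nonetheless lower, at 4646 and 5948 CPM in shNkx2-1 and 7226 and 7939 CPM in shControl. Thbs1, the abundant matricellular protein thrombospondin 1, made up much of it, at 816 and 1782 CPM in shNkx2-1 and 2896 and 3402 CPM in shControl (log2 change -1.28 ± 0.30, adjusted p = 0.0235, or 0.142 in the fit of all 8 libraries), a call lost also without shControl library 1 or shControl library 2. Acan, the cartilage proteoglycan aggrecan, measured 106 and 67.2 CPM in shNkx2-1 and 34.3 and 35.2 CPM in shControl (log2 change 1.31 ± 0.19, adjusted p = 0.0032). The type VI collagen chains moved together: Col6a1 measured 122 and 153 CPM in shNkx2-1 and 51 and 62.1 CPM in shControl (log2 change 1.28 ± 0.13, adjusted p = 0.000814) and Col6a2 55.3 and 58.9 CPM in shNkx2-1 and 30.6 and 31.4 CPM in shControl (log2 change 0.88 ± 0.10, adjusted p = 0.00134). Enzymes that mature collagen split, with the lysyl hydroxylase Plod1 at 52.4 and 48.9 CPM in shNkx2-1 and 22.2 and 30.1 CPM in shControl (log2 change 0.95 ± 0.14, adjusted p = 0.00412) and its relative Plod2 at 14.2 and 15.2 CPM in shNkx2-1 and 26.4 and 29.8 CPM in shControl (log2 change -0.93 ± 0.15, adjusted p = 0.00521). Pcolce, which speeds the trimming of procollagen, and Ecm1 rose by log2 changes of 0.70 ± 0.09 and 0.91 ± 0.10. Col5a3, a chain of type V collagen, measured 1.41 and 1.65 CPM in shNkx2-1 and 0.134 and 0.26 CPM in shControl and rose (log2 change 2.86 ± 0.43, adjusted p = 0.00424). The matricellular protein Wisp1 measured 3.37 and 2.16 CPM in shNkx2-1 and 0.403 and 0.571 CPM in shControl and rose (log2 change 2.45 ± 0.38, adjusted p = 0.00486). Spp1, osteopontin, a secreted matricellular phosphoprotein, measured 271 and 502 CPM in shNkx2-1 and 1069 and 1453 CPM in shControl and fell (log2 change -1.71 ± 0.30, adjusted p = 0.00841), but reached only 0.0766 in the fit of all 8 libraries.

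Basement membrane genes were divided. Of 22 tested 9 rose and 5 fell, 2 and 1 in all fits (median log2 change 0.00, -0.10 to 0.15). Fbln2, fibulin 2, which bridges laminin and fibronectin, measured 486 and 456 CPM in shNkx2-1 and 93.6 and 134 CPM in shControl (log2 change 2.05 ± 0.15, adjusted p = 0.000222), and Sparc, a collagen-binding glycoprotein, 643 and 578 CPM in shNkx2-1 and 363 and 377 CPM in shControl (log2 change 0.72 ± 0.08, adjusted p = 0.00134). Col4a1, a chain of the type IV collagen network, measured 483 and 523 CPM in shNkx2-1 and 1087 and 983 CPM in shControl (log2 change -1.04 ± 0.10, adjusted p = 0.000618). Its partner chain Col4a2, whose gene lies head to head with it, measured 540.0 and 417 CPM in shNkx2-1 and 583 and 530.4 CPM in shControl and did not pass (adjusted p = 0.258). Nid1 and Lamc1 moved in opposite directions, with log2 changes of 1.63 ± 0.18 for the linker nidogen and -0.50 ± 0.08 for the laminin gamma chain. Both lost their calls in the fit of all 8 libraries, at adjusted p = 0.134 and 0.10.

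Proteases and their inhibitors leaned upward. Of 37 tested matrix proteases, inhibitors and invadopodium genes 11 rose and 1 fell, 2 and 0 in all fits (median log2 change 0.33, 0.29 to 0.48). Among all genes tested 8.94% rose and 6.82% fell, 1.64% and 1.14% in all fits. Fscn1, fascin, which bundles actin in filopodia and invadopodia, measured 308 and 301 CPM in shNkx2-1 and 111 and 144 CPM in shControl (log2 change 1.25 ± 0.12, adjusted p = 0.000763), and the aggrecan-cleaving Adamts15 17.6 and 24.4 CPM in shNkx2-1 and 7.86 and 6.08 CPM in shControl (log2 change 1.60 ± 0.21, adjusted p = 0.00249). Sh3pxd2a, the invadopodium scaffold Tks5, measured 177 and 205 CPM in shNkx2-1 and 155 and 170.2 CPM in shControl and did not pass (adjusted p = 0.179). Neither did the membrane metalloprotease Mmp14, at 13.4 and 11.3 CPM in shNkx2-1 and 5.91 and 8.31 CPM in shControl (adjusted p = 0.101). Among 31 tested cathepsins, cystatins and serpins 9 rose and 2 fell, 2 and 0 in all fits (median log2 change 0.19, 0.13 to 0.28). Serpinb1a, an inhibitor of neutrophil proteases, and the secreted protease Htra1 were the rises in all fits (log2 changes 1.25 ± 0.16 and 0.95 ± 0.15). Of 30 tested integrins and matrix receptors 2 rose and 3 fell, none in all fits (median log2 change 0.05, -0.05 to 0.12), shares near those of all genes.

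Cell junctions and filaments changed at single genes. Dsp, desmoplakin, which ties desmosomes to keratins, measured 86.1 and 111 CPM in shNkx2-1 and 252 and 270.4 CPM in shControl (log2 change -1.40 ± 0.12, adjusted p = 0.00049). Krt23 measured 23.1 and 28.8 CPM in shNkx2-1 and 91.4 and 96.6 CPM in shControl (log2 change -1.86 ± 0.13, adjusted p = 0.000162) and fell like Krt20, while Krt8, Krt18 and Krt19, the keratins of simple epithelium, had log2 changes of -0.24 ± 0.10, -0.18 ± 0.10 and -0.10 ± 0.10 and did not pass. Of 51 tested junction genes 9 rose and 2 fell, 0 and 1 in all fits (median log2 change 0.01, -0.04 to 0.21), Dsp being the one in all fits. Of 20 tested keratins and other filaments 2 rose and 2 fell, 0 and 2 in all fits (median log2 change 0.24, 0.08 to 0.26). Cdh1 had a log2 change of -0.22 ± 0.11 (adjusted p = 0.204) and the mesenchymal filament Vim, at 2669.6 and 2509 CPM in shNkx2-1 and 2207 and 2289 CPM in shControl, one of 0.20 ± 0.09 (adjusted p = 0.168). The transcription factor Snai2, known from epithelial to mesenchymal transition, measured 9.44 and 9.2 CPM in shNkx2-1 and 4.37 and 4.52 CPM in shControl (log2 change 1.07 ± 0.17, adjusted p = 0.00535). Of 31 tested genes on the mesenchymal and cytoskeletal list 6 rose and 5 fell, 3 and 0 in all fits (median log2 change -0.04, -0.11 to 0.16). Cdc42, a small GTPase of cell polarity and filopodia chosen after its values were seen, measured 321 and 306 CPM in shNkx2-1 and 110.0 and 152 CPM in shControl (log2 change 1.26 ± 0.13, adjusted p = 0.000997).

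**Figure D3:**
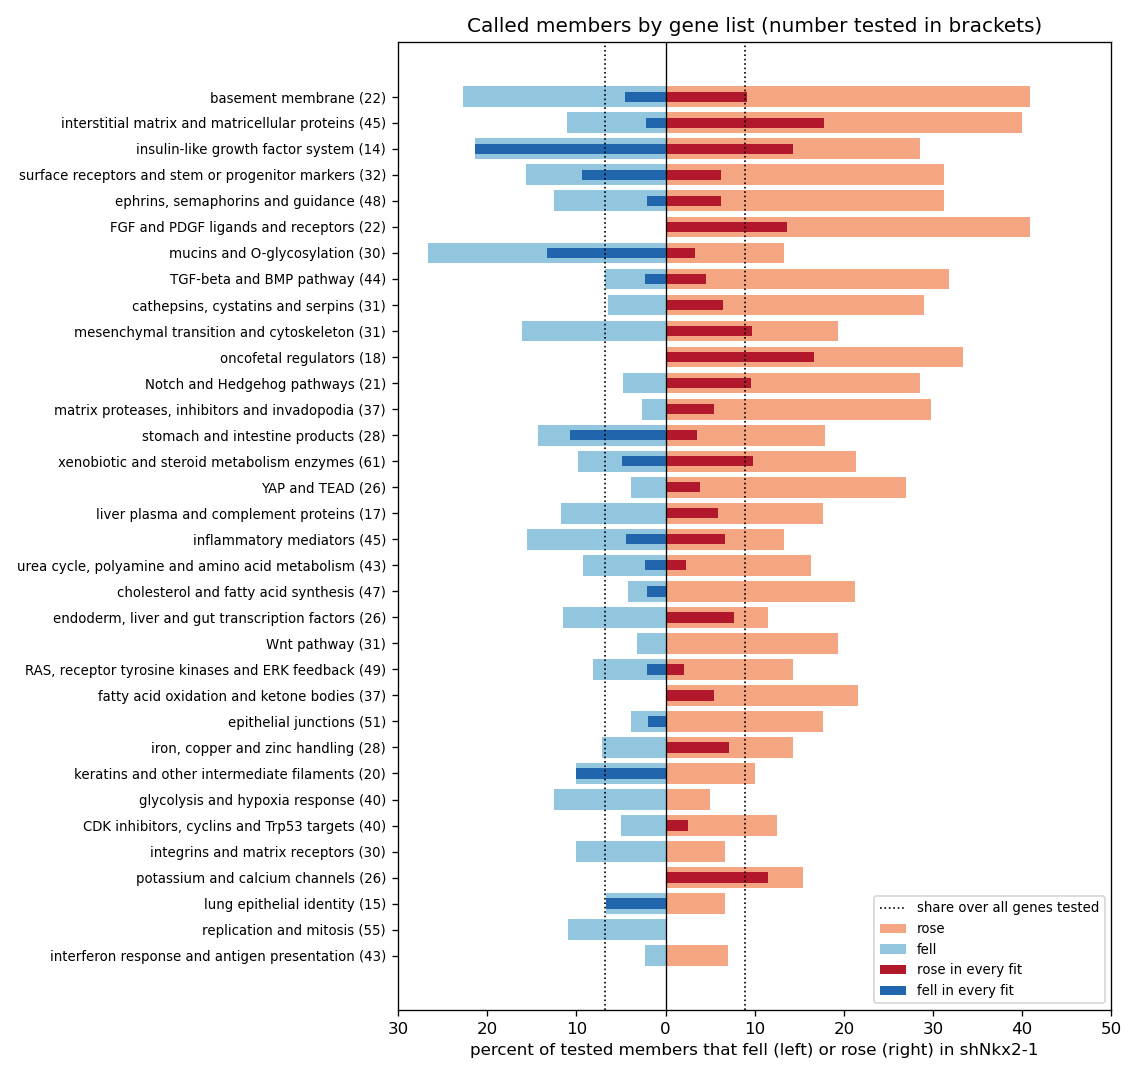
Percent of each list's tested members that fell (blue, left) or rose (orange, right) in shNkx2-1, for lists with at least 10 tested members (number tested in brackets). The narrow dark bars count calls made in all fits, and dotted lines mark the 6.82% of all tested genes that fell and the 8.94% that rose. The FGF and PDGF, basement membrane and interstitial matrix lists reach furthest to the right, and the mucin list furthest to the left.

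Several signalling ligands and receptors rose. Of 22 tested FGF, PDGF and VEGF ligands and receptors 9 rose and none fell, 3 and 0 in all fits (median log2 change 0.69, 0.52 to 0.77). In the falling direction 1 had an unadjusted p below 0.05 and DESeq2 called 1. Among all genes tested 8.94% rose and 6.82% fell. Pdgfb, a ligand for stromal cells, measured 11.6 and 9.54 CPM in shNkx2-1 and 2.89 and 4.0 CPM in shControl (log2 change 1.59 ± 0.20, adjusted p = 0.00191). The receptor Flt1 measured 19.2 and 16.8 CPM in shNkx2-1 and 6.52 and 5.56 CPM in shControl (log2 change 1.58 ± 0.17, adjusted p = 0.000936), and Nrp1, a co-receptor for VEGF and semaphorins, 85.4 and 95.5 CPM in shNkx2-1 and 25 and 21.6 CPM in shControl (log2 change 1.96 ± 0.13, adjusted p = 0.000147). All 3 had both shNkx2-1 libraries above both controls. Their calls in all fits made that likely, and 59.3% of all genes tested had groups that did not overlap. Of 49 tested genes of RAS, receptor tyrosine kinases and ERK feedback 7 rose and 4 fell, 1 and 1 in all fits (median log2 change 0.04, -0.01 to 0.07). Nras, a small GTPase upstream of ERK, measured 229 and 262 CPM in shNkx2-1 and 117 and 143 CPM in shControl (log2 change 0.91 ± 0.11, adjusted p = 0.00193), and Fos, an immediate early gene downstream of ERK, 7.78 and 4.66 CPM in shNkx2-1 and 21.1 and 17.9 CPM in shControl (log2 change -1.65 ± 0.23, adjusted p = 0.00286).

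Of 44 tested genes of the TGF-beta and BMP pathway 14 rose and 3 fell, 2 and 1 in all fits (median log2 change 0.17, 0.13 to 0.26). The shares of all genes tested were 8.94% and 6.82%, and 1.64% and 1.14% in all fits. The ligand Tgfb2 rose, and the BMP antagonist Grem1 fell, measuring 0.674 and 1.42 CPM in shNkx2-1 and 5.58 and 4.94 CPM in shControl (log2 change -2.30 ± 0.34, adjusted p = 0.00382). Smad6, an inhibitory Smad that BMP signals induce, measured 18.8 and 20.5 CPM in shNkx2-1 and 6.92 and 8.83 CPM in shControl (log2 change 1.31 ± 0.18, adjusted p = 0.00285). The BMP target genes Id1, Id2 and Id3, which block helix-loop-helix factors, rose by log2 changes of 1.08 ± 0.15, 1.36 ± 0.16 and 1.09 ± 0.19. Id1 measured 129 and 152 CPM in shNkx2-1 and 57.9 and 74.9 CPM in shControl. Both shNkx2-1 libraries were above both controls, where the groups did not overlap in 59.3% of all genes tested. All of the Id genes kept their calls without any 1 of the Tnonmet libraries, and lost them in the fit of all 8 libraries (adjusted p = 0.182, 0.297 and 0.214).

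Notch genes rose at receptor and ligand. Notch1 measured 39.3 and 28 CPM in shNkx2-1 and 12.2 and 14 CPM in shControl (log2 change 1.35 ± 0.18, adjusted p = 0.00256) and Jag1 126 and 127 CPM in shNkx2-1 and 67 and 72.4 CPM in shControl (log2 change 0.86 ± 0.09, adjusted p = 0.000799). Of 21 tested genes of Notch and Hedgehog 6 rose and 1 fell, 2 and 0 in all fits (median log2 change 0.31, 0.16 to 0.38). For this list and the others of this paragraph, the shares over all genes tested were 8.94% rising and 6.82% falling. Yap1, the Hippo pathway co-activator, measured 157 and 147 CPM in shNkx2-1 and 96.2 and 104 CPM in shControl and rose (log2 change 0.60 ± 0.08, adjusted p = 0.00289). The YAP target Ctgf measured 245 and 167 CPM in shNkx2-1 and 201 and 115 CPM in shControl (adjusted p = 0.341). Cyr61, another, measured 289 and 151 CPM in shNkx2-1 and 592 and 237 CPM in shControl (adjusted p = 0.162). The groups overlapped in both targets. Of 26 tested genes around YAP and TEAD 7 rose and 1 fell, 1 and 0 in all fits (median log2 change 0.26, 0.22 to 0.34). Of 31 tested Wnt pathway genes 6 rose and 1 fell, none in all fits (median log2 change 0.09, 0.05 to 0.13). Of 48 tested ephrin, semaphorin and other guidance genes 15 rose and 6 fell, 3 and 1 in all fits (median log2 change 0.13, 0.12 to 0.18). The ephrin receptor Ephb3 and the semaphorin Sema3b rose beside Nrp1 (log2 changes 0.75 ± 0.11 and 0.65 ± 0.10). Slit2, the repellent ligand of Robo receptors, measured 19.4 and 25.2 CPM in shNkx2-1 and 59.1 and 56.7 CPM in shControl (log2 change -1.37 ± 0.13, adjusted p = 0.000693).

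Iron handling had 2 rises in all fits. Beside ferroportin, Fth1, the heavy chain of ferritin that stores iron, measured 2747 and 2715 CPM in shNkx2-1 and 1557 and 1706 CPM in shControl (log2 change 0.74 ± 0.08, adjusted p = 0.00112). Of 28 tested genes of iron, copper and zinc 4 rose and 2 fell, 2 and 0 in all fits (median log2 change 0.15, 0.12 to 0.16). Of 37 tested genes of fatty acid oxidation and ketone bodies 8 rose and none fell, 2 and 0 in all fits (median log2 change 0.15, 0.08 to 0.19). In the falling direction 2 had an unadjusted p below 0.05 and DESeq2 called 1. The peroxisomal thiolase Acaa1b measured 4.96 and 4.43 CPM in shNkx2-1 and 0.605 and 0 CPM in shControl (log2 change 4.09 ± 0.68, adjusted p = 0.00643). Cbs, which makes cystathionine from homocysteine, measured 3.98 and 2.44 CPM in shNkx2-1 and 0.269 and 0.26 CPM in shControl (log2 change 3.57 ± 0.48, adjusted p = 0.00281). Of 47 tested genes of cholesterol and fatty acid synthesis 10 rose and 2 fell, 0 and 1 in all fits (median log2 change 0.10, 0.03 to 0.19). On this list Acsl1, which activates long-chain fatty acids, measured 18.1 and 19.5 CPM in shNkx2-1 and 38.6 and 37.5 CPM in shControl and fell (log2 change -1.02 ± 0.11, adjusted p = 0.00103). Of 43 in the urea cycle, polyamine and amino acid list 7 rose and 4 fell, 1 and 1 in all fits (median log2 change 0.09, -0.02 to 0.15). Of 40 in glycolysis and the hypoxia response 2 rose and 5 fell, none in all fits (median log2 change -0.04, -0.16 to -0.03).

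Replication and mitosis genes leaned downward, though few passed. Of 55 tested none rose and 6 fell, none in all fits (median log2 change -0.21, -0.39 to -0.03). The falls are 10.9% of the list, where 6.82% of all genes tested fell. A negative log2 change was found in 50 of the 55. At an unadjusted p below 0.05, 1 rose and 19 fell, and DESeq2 called 0 and 9. The 2 shNkx2-1 libraries differed here, their summed level being 5121 and 4027 CPM, against 5124 and 5428 CPM in shControl. Ccnd2, a cyclin of the G1 phase, measured 692 and 678 CPM in shNkx2-1 and 280.0 and 399 CPM in shControl and rose (log2 change 1.01 ± 0.15, adjusted p = 0.00404). Of 40 tested CDK inhibitors, cyclins and Trp53 targets 5 rose and 2 fell, 1 and 0 in all fits (median log2 change -0.02, -0.10 to 0.08).

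Several mucin and glycosylation genes fell. Of 30 tested 4 rose and 8 fell, 1 and 4 in all fits (median log2 change -0.24, -0.27 to -0.18). Among all genes tested 8.94% rose and 6.82% fell. The gel-forming airway mucin Muc5b measured 0.797 and 1.7 CPM in shNkx2-1 and 5.71 and 9.04 CPM in shControl (log2 change -2.55 ± 0.37, adjusted p = 0.00376). Galnt3, which begins O-glycans, measured 17.1 and 18.1 CPM in shNkx2-1 and 31.7 and 33.1 CPM in shControl (log2 change -0.88 ± 0.11, adjusted p = 0.00195), and the branching enzyme Gcnt2 42 and 45.2 CPM in shNkx2-1 and 78.9 and 76.4 CPM in shControl (log2 change -0.83 ± 0.11, adjusted p = 0.00218). The sialyltransferases St3gal4 and St3gal6 parted, at log2 changes of 0.99 ± 0.09 and -0.67 ± 0.11. Of 32 tested surface and progenitor markers 10 rose and 5 fell, 2 and 3 in all fits (median log2 change 0.10, 0.02 to 0.14). Alcam, an adhesion molecule, measured 148 and 183 CPM in shNkx2-1 and 299 and 283 CPM in shControl (log2 change -0.82 ± 0.11, adjusted p = 0.00247) and fell along with Cd34. Ly6a, the mouse progenitor antigen Sca-1, measured 250.1 and 276 CPM in shNkx2-1 and 77.1 and 121 CPM in shControl (log2 change 1.41 ± 0.19, adjusted p = 0.00264), a value made uncertain by near-identical Ly6 genes. Of 26 tested potassium and calcium channels 4 rose and none fell, 3 and 0 in all fits (median log2 change -0.03, -0.12 to 0.12). In the falling direction 2 had an unadjusted p below 0.05 and DESeq2 called 1. The voltage-gated calcium channel subunits Cacna1a and Cacnb3 rose by log2 changes of 0.93 ± 0.11 and 0.92 ± 0.14.

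Inflammatory mediators went both ways. Of 45 tested 6 rose and 7 fell, 3 and 2 in all fits (median log2 change 0.09, -0.21 to 0.14). Il1rn, the natural antagonist of interleukin 1, measured 142 and 123 CPM in shNkx2-1 and 59 and 62.1 CPM in shControl (log2 change 1.13 ± 0.10, adjusted p = 0.00055). Ptgs1, the constitutive cyclooxygenase, measured 11.2 and 9.2 CPM in shNkx2-1 and 2.49 and 2.13 CPM in shControl (log2 change 2.15 ± 0.27, adjusted p = 0.00204), and the chemokine Ccl9 7.78 and 8.06 CPM in shNkx2-1 and 3.09 and 3.43 CPM in shControl (log2 change 1.28 ± 0.19, adjusted p = 0.00404). The lung chemokine Cxcl15 measured 0.0613 and 0.284 CPM in shNkx2-1 and 2.75 and 1.66 CPM in shControl and fell (log2 change -3.57 ± 0.58, adjusted p = 0.00601). Of 43 tested interferon and antigen presentation genes 3 rose and 1 fell, none in all fits (median log2 change 0.01, -0.15 to 0.06). Of 9 tested Hox and Sox factors 2 rose and none fell, none in all fits (median log2 change 0.61, 0.40 to 0.77). None of these factors fell at an unadjusted p below 0.05, nor by DESeq2.

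Markers of leukocytes, endothelium and fibroblasts were scarce in both groups. Of 17 leukocyte markers 3 could be tested. None of them changed by edgeR, by DESeq2 or at an unadjusted p below 0.05. Their summed level was 28.8 and 32.7 CPM in shNkx2-1 and 34.1 and 30.7 CPM in shControl, and Ptprc, Cd3e and Tyrobp were at 0 in all 4 libraries. Endothelial markers summed to 4.78 and 3.75 CPM in shNkx2-1 and 3.09 and 3.53 CPM in shControl, with 2 of 12 tested and Cldn5 at 0 in all 4. None changed by edgeR or DESeq2, and 1 had an unadjusted p below 0.05. Fibroblast markers summed to 9.8 and 7.72 CPM in shNkx2-1 and 5.58 and 5.71 CPM in shControl, with Pdgfrb and Postn at 0 in all 4 and Col1a1 the single rise among 4 tested. Col1a1 measured 7.6 and 5.57 CPM in shNkx2-1 and 3.16 and 3.74 CPM in shControl (log2 change 0.92 ± 0.21, adjusted p = 0.023) and lost its call in the fit of all 8 libraries and without shControl library 1, shControl library 2 or shNkx2-1 library 1 (adjusted p 0.571 with all 8, 0.14 without shControl library 1, 0.066 without shControl library 2 and 0.10 without shNkx2-1 library 1). Neuroendocrine markers summed to 105 and 118 CPM in shNkx2-1 and 65 and 81.5 CPM in shControl, most of it from Ncam1. Of these 13 markers 4 were tested and Ncam1 was the single rise, at 102 and 115 CPM in shNkx2-1 and 63 and 80.0 CPM in shControl. The rise of Ncam1 (log2 change 0.60 ± 0.13, adjusted p = 0.0182) was lost in the fit of all 8 libraries and without shControl library 1 or shNkx2-1 library 2 (adjusted p 0.147 with all 8, 0.126 without shControl library 1 and 0.070 without shNkx2-1 library 2). In such bulk libraries fewer cells of a type and less RNA in each cell cannot be told apart.

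The triple knockdown libraries show where the same genes lay when Foxa2 and Cdx2 were targeted as well. Both comparisons use the same 2 shControl libraries, so their changes are not independent of each other, and the genes below were chosen after their values were seen. Nkx2-1 itself measured 38.1 and 45.2 CPM in shNkx2-1, 38.4 and 34.3 CPM in the triple knockdown and 77 and 68.5 CPM in shControl, the shNkx2-1 and triple knockdown libraries overlapping. Igf2bp2 measured 79 and 55.3 CPM in shNkx2-1, 86.4 and 61.3 CPM in the triple knockdown and 6.65 and 7.07 CPM in shControl. Krt20 measured 9.68 and 8.69 CPM in shNkx2-1, 4.68 and 6.21 CPM in the triple knockdown and 177 and 148 CPM in shControl, and Cd34 2.02 and 1.19 CPM in shNkx2-1, 1.34 and 1.62 CPM in the triple knockdown and 32.8 and 22.8 CPM in shControl. In these 3 genes the libraries of both knockdowns lay on 1 side of shControl, and both groups passed against it (triple knockdown log2 changes 3.42, -4.90 and -4.23). Other genes lay further from the control in the triple knockdown. Fbln2 measured 486 and 456 CPM in shNkx2-1, 1558 and 1689 CPM in the triple knockdown and 93.6 and 134 CPM in shControl. Acan measured 106 and 67.2 CPM in shNkx2-1, 355 and 391 CPM in the triple knockdown and 34.3 and 35.2 CPM in shControl. Hmga2 measured 208 and 144 CPM in shNkx2-1, 709 and 664 CPM in the triple knockdown and 79.1 and 80.8 CPM in shControl. In each the shNkx2-1 libraries lay between the other groups, and the log2 changes of the triple knockdown against shControl were 3.83, 3.42 and 3.10. Cdx2, Lgals2 and C4bp, which rose with Nkx2-1 knockdown alone, lay below shControl in the triple knockdown. Cdx2, a target there, measured 177 and 188 CPM in shNkx2-1, 9.49 and 6.85 CPM in the triple knockdown and 99.3 and 111 CPM in shControl. Lgals2 measured 119 and 131 CPM in shNkx2-1, 3.41 and 3.94 CPM in the triple knockdown and 42 and 35.1 CPM in shControl. C4bp measured 22.1 and 30.2 CPM in shNkx2-1, 0.304 and 0.0647 CPM in the triple knockdown and 3.36 and 3.17 CPM in shControl, the triple knockdown libraries holding few counts. Their log2 changes in the triple knockdown against shControl were -3.68, -3.39 and -4.06, where 42.6% of all genes tested passed in that comparison. Igfbp7 measured 54.8 and 66.6 CPM in shNkx2-1, 156 and 144 CPM in the triple knockdown and 179 and 177 CPM in shControl. Krt23 measured 23.1 and 28.8 CPM in shNkx2-1, 91.5 and 109 CPM in the triple knockdown and 91.4 and 96.6 CPM in shControl. In both genes the shNkx2-1 libraries lay below all libraries of the other groups, and the triple knockdown did not pass against shControl (adjusted p = 0.0795 and 0.566). The difference between the 2 knockdowns was not tested.

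**Figure D4:**
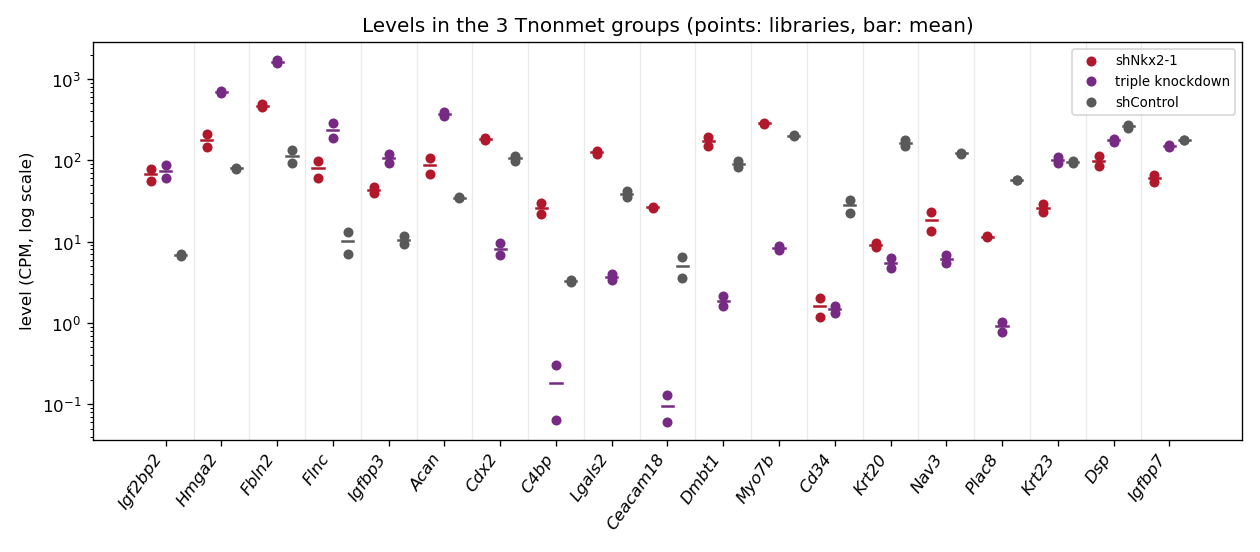
Level of 19 genes (CPM, log y axis) in each library of shNkx2-1 (red), the triple knockdown (purple) and shControl (grey), with bars at the group means. The first 6 genes are above shControl in both knockdowns, the next 6 are above shControl in shNkx2-1 and below it in the triple knockdown, and the last 7 are below shControl in shNkx2-1.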

How the data were processed

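The file used, as deposited by the authors, gives estimated counts per gene (RSEM expected counts) for 8 libraries. Per the labels' protocols, polyadenylated RNA was made into TruSeq libraries and read as single-end 45 nt reads. Per the submitters' processing notes, RSEM 1.2.12 and Bowtie 1.0.1 were used with the build mm9. No source used here gives the strand setting or gene annotation, so antisense and overlapping genes cannot be separated. RSEM divides reads among similar genes, so values of near-identical copies are uncertain.

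The estimated counts were rounded and the 6 Tnonmet libraries were fitted with edgeR 4.0.16 in R 4.3.3 (TMM factors, filterByExpr with a minimum count of 10 and a minimum total of 15, quasi-likelihood F-test, two-sided, Benjamini-Hochberg adjustment over 12727 genes, threshold 0.05), after the procedure had been tested on simulated data. The errors beside log2 changes approximate standard errors. Each is the absolute log2 change divided by the square root of the F statistic of its test. The Tmet libraries were left out of this fit because their duplicates differed most. The alternatives were fits of all 8 or only 4 libraries, DESeq2 1.42.0, its size factors, no filter, a replicate block, and leaving out each library. Named genes were the targeted genes and Trp53, the 15 largest rises and 15 largest falls averaging 5 CPM or more in the group where they are higher, with groups that do not overlap, calls in the fits of 6 and of 8 libraries and no clone, predicted or pseudogene name, and up to 8 called members of each list, of which the text names some. Some results are not reported here. The comparison, the 39 lists and the tests were chosen with earlier results of these data known. Intervals were not computed, and the limit of 3 counts covers counting error only.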

Additional observations from a re-analysis of the deposited data

How the results depend on the processing

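No called gene picked by the naming rule changed direction under any alternative run. The 2006 calls (1138 higher, 868 lower, 312 of them list genes) became 473, 289, 184 and 102 in the fit of all 8 libraries, whose Tmet duplicates widen the shared spread, and 3454, 1856, 1598 and 493 with a replicate block. The fit of the 4 libraries alone, DESeq2, its size factors and no filter gave 1779, 1851, 2005 and 2541. Leaving out 1 library gave 567 to 1826 calls, 346 to 1035 higher, 221 to 814 lower and 132 to 296 list genes. The 567 came without shControl library 1, and 478 genes of the main fit passed in all 6 such fits. Of 245 genes that the naming rule picks, 132 lost their call with all 8 libraries and 12 to 108 without 1 library. Of 35 list medians, 16 moved by more than the spread between libraries without shControl library 1 and 15 without shControl library 2. The level of Nkx2-1 stayed below that of shControl in all fits, with a log2 change of -0.94 to -0.69 over the fits that leave out 1 library.

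Replicate numbers are shared by the groups, but no label says what they mark. The deviations of same-numbered libraries from their group means correlated at 0.168 between shNkx2-1 and shControl, 0.261 between shNkx2-1 and the triple knockdown and 0.183 between the triple knockdown and shControl, and the block kept all 2006 calls of the main fit. With the block Foxa2, which passed in no other fit (adjusted p 0.0911 to 0.42), had an adjusted p of 0.0274. The number of libraries limits the precision, and near the limit of 3 counts so does the depth.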

Other observations

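Gene families outside the lists showed the following values. They were picked by symbol after their values had been seen, so the counts are descriptions. Cytosolic ribosomal protein genes were slightly higher in shNkx2-1: 76 of 78 tested had a positive log2 change, with a median of 0.22 (0.13 to 0.31 over the fits). By edgeR 12 rose in the main fit, where 8.94% of all genes tested rose, and none of these calls held in all fits. Genes of intraflagellar transport and the Bardet-Biedl complex, which carry cargo in cilia, had a median log2 change of -0.25 (-0.38 to -0.19 over the fits), over 20 tested. Of these 3 fell, 2 in all fits, where 6.82% of all genes tested fell. Ift88, the core of the transport train, measured 7.41 and 7.33 CPM in shNkx2-1 and 18 and 15.3 CPM in shControl (log2 change -1.17 ± 0.19, adjusted p = 0.00531), and Ift57 14.1 and 17.1 CPM in shNkx2-1 and 33 and 31.2 CPM in shControl (log2 change -1.04 ± 0.13, adjusted p = 0.00213). The centrosomal protein Cep290 measured 20.7 and 18.9 CPM in shNkx2-1 and 34.1 and 35.5 CPM in shControl (log2 change -0.82 ± 0.12, adjusted p = 0.00354), and the cilium gene Ttc26 8.58 and 10.4 CPM in shNkx2-1 and 20.5 and 20.5 CPM in shControl (log2 change -1.11 ± 0.15, adjusted p = 0.00257). Cep290 and Ttc26 lie outside the Ift and Bbs symbols and were chosen after their values were seen. In all 4 of these genes both shNkx2-1 libraries lay below both shControl libraries. Their calls in all fits made that likely, and the groups did not overlap in 59.3% of all genes tested.

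Of 16 tested tetraspanins, which organise membrane domains, 2 rose and 4 fell, 0 and 3 in all fits. Over all genes tested 8.94% rose and 6.82% fell, 1.64% and 1.14% in all fits. Tspan13 measured 3.43 and 3.18 CPM in shNkx2-1 and 17.4 and 13.4 CPM in shControl (log2 change -2.21 ± 0.20, adjusted p = 0.000624) and Tspan1 3.62 and 5.96 CPM in shNkx2-1 and 20.6 and 20.5 CPM in shControl (log2 change -2.09 ± 0.23, adjusted p = 0.00109). Of 9 tested clade B serpins 6 rose by edgeR in the main fit, 2 of them in all fits, against 8.94% and 1.64% of all genes tested. The Serpinb9 copies are near-identical and their values are uncertain. Macc1 and Abcg2 were likewise chosen after their values were seen. Macc1, known as a driver of colon cancer spread, measured 19.1 and 20.1 CPM in shNkx2-1 and 61.7 and 54.8 CPM in shControl and fell (log2 change -1.57 ± 0.13, adjusted p = 0.00033). Abcg2, the multidrug exporter, measured 49.9 and 35.7 CPM in shNkx2-1 and 11.4 and 8.36 CPM in shControl and rose (log2 change 2.13 ± 0.22, adjusted p = 0.000802).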
